A study of Homo sapiens with 6 samples.

Results

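The 10 genes described here encode subunits of BLOC-1, BLOC-2 and BLOC-3, the biogenesis of lysosome-related organelles complexes, and were found in the expression table by gene name. They are 10 of the 58735 genes listed, and all 10 were matched. BLOC-1 is represented by DTNBP1, BLOC1S1, BLOC1S2, BLOC1S3 and BLOC1S6, BLOC-2 by all of its known subunits, HPS3, HPS5 and HPS6, and BLOC-3 by HPS1 and HPS4. The set was chosen by known function and selected on the measured fold change of HPS6 between PAL and control FPKM, which is among the largest rises, so the differences of the members between groups are given as a description and no test is read from them. RNA enriched for poly-A was sequenced from A375, an established human malignant melanoma cell line, in 3 libraries of cells given PAL, which is Ringer's lactate exposed to low-temperature plasma, and in 3 control libraries. The headers name the PAL group PAL_64, and the sources used here do not say what the number means. The sources also do not give the dose, the exposure time, the control medium or whether replicates came from separate cultures. The p-values therefore rest on a spread between libraries that may be technical.

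Melanosomes are organelles related to lysosomes in which pigment cells make melanin, and their enzymes reach them from endosomes. BLOC-1 helps to form the tubular carriers that leave early endosomes, BLOC-2 helps to direct those carriers to maturing melanosomes, and BLOC-3 activates the GTPases RAB32 and RAB38, which act on the same route. Loss of some of the subunits causes Hermansky-Pudlak syndrome, with albinism and a bleeding tendency, because platelet dense granules depend on the same complexes. The genes are transcribed in most cell types, also in cells that make no pigment.

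Assigned reads ranged from 16053009 to 17711389 in PAL libraries and from 15064971 to 16081733 in control libraries. In limma's test, 25.9% of 12258 genes were called (adjusted p under 0.05), of which those above control made up 11.4% of all and those below it 14.5%. Rises made up 44.0% of these calls in the FPKM as given, 59.2% after quantile normalization, 69.9% after scaling to equal sums and 73.3% after scaling to plain read totals. HSPA6, a stress-inducible chaperone, averaged 40.4 ± 28.6 FPKM in PAL and 1882 ± 171 FPKM in control (SD, n = 3 each), rank 8 among tested genes by its control mean. PAL replicate 3 stood nearest to the controls in that gene, at 73.2 FPKM against 20.7 and 27.4 FPKM in PAL replicates 1 and 2. Why a stress-inducible gene stood far higher in control was not tested. Each direction given here rests on the group labels as the submitters gave them. FPKM is reads scaled by exon length and by a library size.

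The labelled cell type was checked against 8 markers of the melanocyte lineage. SOX10, a transcription factor of that lineage, was higher, at 107 to 108 FPKM in PAL and 86.4 to 89.7 FPKM in control (limma adjusted p = 0.000388). MITF, the regulator of pigment genes, stood at 2.12 to 2.38 FPKM in PAL and at 2.32 to 2.40 FPKM in control. Genes of pigment cargo were at or near 0 in every library: TYR, tyrosinase, was listed at 0 in all 6 libraries, MLANA reached 0.0528 FPKM in 1 library, and PMEL, the fibril protein of melanosomes, stayed at 0.243 to 0.415 FPKM. The BLOC genes were thus measured in a melanoma line whose RNA held almost no transcripts of these pigment proteins. S100B, a calcium-binding protein of the lineage and the third marker to reach 1 FPKM, was lower, at 3.98, 3.89 and 4.24 FPKM in PAL replicates 1, 2 and 3, against 5.54, 4.52 and 5.48 FPKM in control replicates 1, 2 and 3 (limma adjusted p = 0.0300). The summed level of the 8 markers, nearly all of it SOX10, was 114 to 115 FPKM in PAL and 93.8 to 98.0 FPKM in control, and its part in the differences below was not tested. Markers of keratinocytes summed to 30.8 to 33.4 FPKM in PAL and 31.5 to 36.4 FPKM in control, with 2 of 4 genes reaching 1 FPKM, KRT10 and KRT14. Most of that sum was KRT10, whereas KRT14 was lower, at 2.87 ± 0.321 FPKM in PAL and 3.80 ± 0.424 FPKM in control (limma adjusted p = 0.0422), and KRT5 was at 0.0507 to 0.0632 FPKM in PAL and 0.132 to 0.157 FPKM in control. In the fibroblast list, 1 of 4 reached 1 FPKM, LUM. Of 3 endothelial and 4 immune markers, 0 did so in any library. In bulk RNA, fewer cells that express a gene and less RNA per cell cannot be told apart.

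All 10 members passed the filter on low values, which asked for 1 FPKM or more in 3 or more libraries. In the fit over all tested genes, 3 of the 10 were past an adjusted p of 0.05, against 25.9% of all genes: HPS6 and BLOC1S3 higher and HPS5 lower in PAL. Values of the groups did not overlap for 4 of 10 members, against 44.9% of all tested genes, with PAL above for 2 members, against 21.4% of all, and PAL below for 2, against 23.6% of all. The fourth was BLOC1S6, which lay lower in PAL by a narrow margin and did not pass. The median log2 fold change was 0.07 over the 10 members and 0.004 over all tested genes. Since the members were chosen with these values known, nothing is read from the counts.

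**Figure D1:**
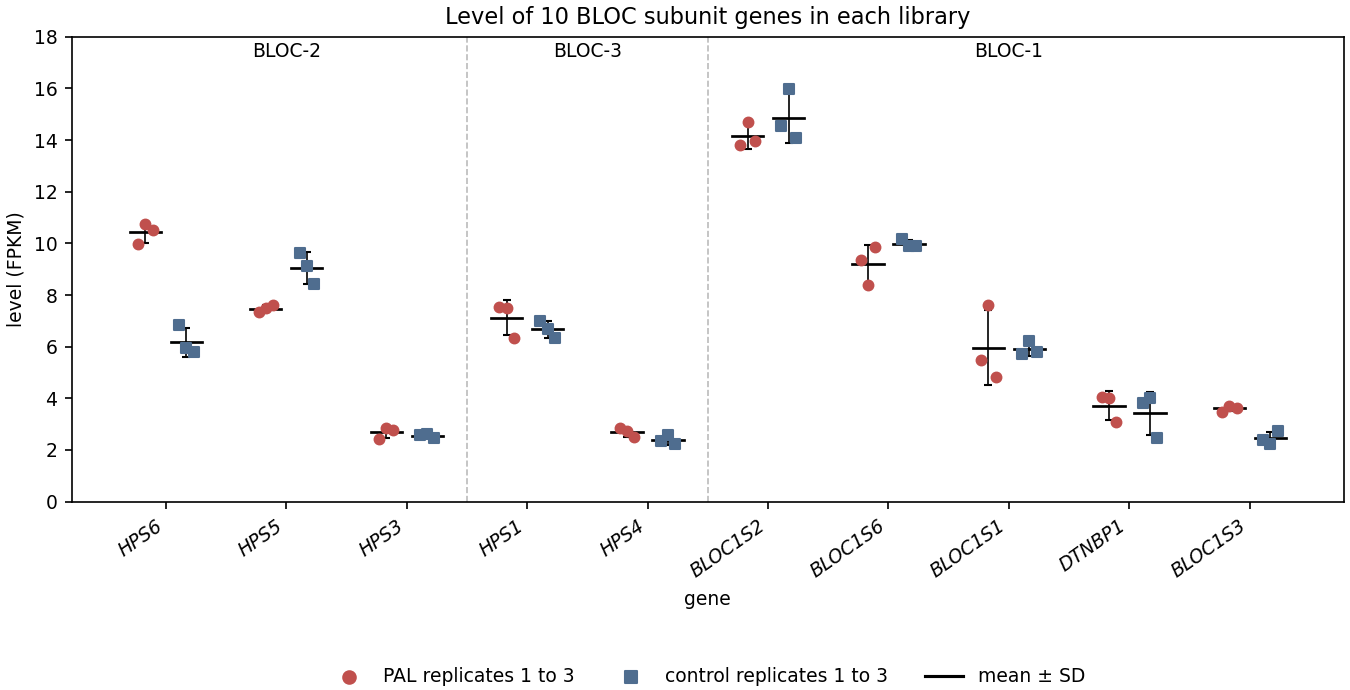
Level in FPKM of each BLOC subunit gene in 3 PAL libraries (circles) and 3 control libraries (squares), with bars for mean ± SD. HPS6 and BLOC1S3 lay higher in every PAL library than in any control library, HPS5 lay lower, and the ranges of HPS3, HPS1, HPS4, BLOC1S2, BLOC1S1 and DTNBP1 overlapped.

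The start regions of BLOC1S3 and HPS5 are shown because these members differed between groups in opposite directions, BLOC1S3 higher and HPS5 lower in PAL, and because the regions differ in make-up. Each is the RefSeq sequence on GRCh38.p14 from 250 bases before to 50 bases after the annotated start, written 5′ to 3′ on the gene's strand, with matches to the searched motifs in capitals.
BLOC1S3, chr19:45178534-45178833, plus strand: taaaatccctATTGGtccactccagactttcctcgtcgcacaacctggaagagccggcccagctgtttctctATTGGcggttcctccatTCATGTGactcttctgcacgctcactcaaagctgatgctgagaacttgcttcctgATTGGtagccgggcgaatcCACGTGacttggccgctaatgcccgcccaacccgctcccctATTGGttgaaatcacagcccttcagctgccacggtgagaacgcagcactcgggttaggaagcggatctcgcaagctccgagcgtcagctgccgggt
HPS5, chr11:18322091-18322390, minus strand: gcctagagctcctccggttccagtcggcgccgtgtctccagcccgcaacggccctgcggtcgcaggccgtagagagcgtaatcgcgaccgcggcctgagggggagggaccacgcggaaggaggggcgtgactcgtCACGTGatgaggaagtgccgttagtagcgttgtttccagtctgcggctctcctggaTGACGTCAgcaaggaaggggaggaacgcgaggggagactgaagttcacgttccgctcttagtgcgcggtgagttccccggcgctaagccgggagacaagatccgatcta
In a search for 8 motifs on both strands, BLOC1S3, with 56.7% G and C, held CACGTG, the E-box read by MITF and its relatives, TCATGTG, the M-box of pigment gene promoters, and 4 matches to CCAAT on the opposite strand. HPS5 had 64.0% G and C, with CACGTG and TGACGTCA, the cyclic AMP response element. Among 27305 RefSeq start regions of the same length, CACGTG occurred in 7.44%, TCATGTG in 2.99%, TGACGTCA in 1.98% and CCAAT in 35.7%.

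Of the 10 members, 9 had a start region in the RefSeq table, the other being HPS1. CACGTG was found in 4 of the 9, BLOC1S1, BLOC1S3, HPS3 and HPS5, so members that were higher, lower and little different in PAL all carried it. CCGGAAG, an ETS site, was found in BLOC1S1 and BLOC1S6 and in 10.7% of all start regions. TGACGTCA was found in HPS4 as well as in HPS5. CCAAT was found in 4 of the 9, BLOC1S1, BLOC1S3, HPS3 and HPS4, and in 35.7% of all start regions. HPS6, BLOC1S2 and DTNBP1 held no match to any searched motif. The heat shock element occurred in 0 of the 9 and in 0.487% of all start regions, the NRF1 site in 0 of the 9 and in 6.28%, and TATAAA in 0 of the 9 and in 12.0%. None of the matches in the members shared a base with a match to another motif. Median G and C content was 64.0% over the 9 members, from 53.0% to 76.0%, and 58.3% over all start regions. These matches describe letters only and say nothing of which factor was bound.

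BLOC-2 showed the widest spread among its subunits. HPS6 (chromosome 10, 102065390 to 102068038, hg38) encodes the subunit that binds HPS5 directly, and its loss gives the ruby-eye mouse. It had 9.99, 10.8 and 10.5 FPKM in PAL replicates 1, 2 and 3, against 6.82, 5.94 and 5.78 FPKM in control replicates 1, 2 and 3. Every PAL library lay above every control library, and the gap between groups was wider than the spread within either. The mean was 10.4 ± 0.393 FPKM in PAL and 6.18 ± 0.563 FPKM in control (SD, n = 3 each), a ratio of 1.69. The log2 fold change of FPKM + 1 was 0.67 ± 0.06 (SE). HPS6 ranked 75 of 12258 tested genes by that fold change and 15 of 10338 protein-coding ones. The rank counts genes whether or not they passed. Of the protein-coding genes above HPS6, RASD1 and U2AF1 did not pass (limma adjusted p = 0.0594 and 0.332).

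These levels rested on 476 to 513 reads per PAL library and 233 to 286 reads per control library. In counting error alone, the lowest PAL library had an exact 95% Poisson interval of 9.13 to 10.9 FPKM, and the highest control library one of 6.05 to 7.66 FPKM. Such intervals hold no more than counting error and leave out variation between replicates. PCR copies are not independent molecules, so the intervals may also be too narrow for counting error. Between replicates the coefficient of variation of HPS6 was 3.77% in PAL and 9.11% in control, 0.836 and 1.45 times that of counting alone. No other annotated gene of the table overlapped HPS6. The nearest tested genes on either side did not pass: ARMH3, 9197 bases to the left, averaged 7.04 ± 0.351 FPKM in PAL and 7.44 ± 0.135 FPKM in control (limma adjusted p = 0.295), and LDB1, a cofactor of LIM proteins 39522 bases to the right, 22.9 ± 0.295 FPKM in PAL and 21.9 ± 1.83 FPKM in control (limma adjusted p = 0.465). Without control replicate 3 LDB1 passed as higher, with a log2 fold change of 0.13 (limma adjusted p = 0.0325, with 0.0325 to 0.790 over the alternatives).

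HPS5 (chromosome 11, 18278668 to 18322198, minus strand), the partner of HPS6 within BLOC-2, differed the other way. It had 7.34, 7.48 and 7.61 FPKM in PAL replicates 1, 2 and 3, against 9.61, 9.12 and 8.41 FPKM in control replicates 1, 2 and 3. The groups did not overlap, and control replicate 3 stood nearest to the PAL range. The mean was 7.47 ± 0.138 FPKM in PAL and 9.05 ± 0.606 FPKM in control, a ratio of 0.826, with a log2 fold change of -0.24 ± 0.05 (SE). HPS5 was no longer past the threshold without PAL replicate 1 (log2 fold change -0.23), PAL replicate 2 (-0.24) or control replicate 2 (-0.24).

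HPS3 (chromosome 3, 149129584 to 149173732), the remaining BLOC-2 subunit, had 2.44, 2.83 and 2.76 FPKM in PAL replicates 1, 2 and 3, against 2.58, 2.61 and 2.45 FPKM in control replicates 1, 2 and 3. Its groups overlapped, with a log2 fold change of 0.05 ± 0.06 (SE). Within a single complex, the data thus held 1 gene higher, 1 lower and 1 with no difference beyond its spread.

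The make-up of the BLOC-2 transcripts differed between groups as a result. By FPKM, which is per length of exon, HPS6 made up 50.5%, 51.1% and 50.3% of the summed BLOC-2 level in PAL replicates 1, 2 and 3, against 35.9%, 33.6% and 34.7% in control replicates 1, 2 and 3. The mean share was 50.7 ± 0.378% in PAL and 34.7 ± 1.14% in control (SD, n = 3 each). HPS5 took 36.3 ± 0.816% in PAL and 50.9 ± 0.602% in control, and HPS3 13.004 ± 0.578% in PAL and 14.3 ± 0.692% in control. The summed level of all 3 was 20.6 ± 0.704 FPKM in PAL and 17.8 ± 1.19 FPKM in control. These shares are made from the values that chose HPS6 and are a description.

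**Figure D2:**
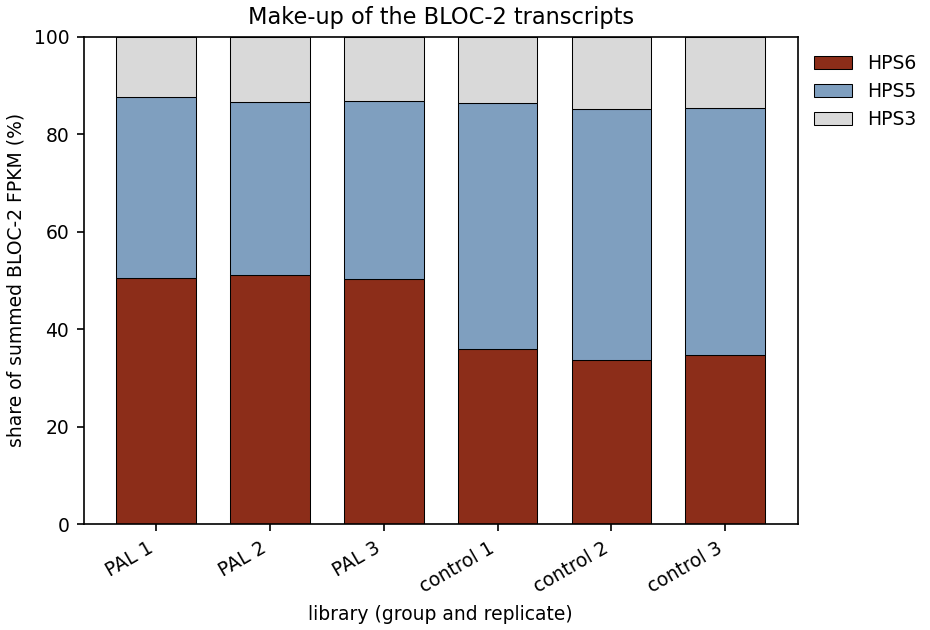
Share of HPS6, HPS5 and HPS3 in the summed FPKM of BLOC-2, as stacked bars in percent for each PAL and control library. HPS6 takes 50.3% to 51.1% in PAL libraries and 33.6% to 35.9% in control libraries, and HPS5 changes in the opposite sense.

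Which of HPS6 and HPS5 stood higher depended on the length used. With the exon length of the table, the ratio of HPS6 to HPS5 was 1.36 to 1.44 in PAL libraries and 0.651 to 0.709 in control libraries, so their order was reversed between groups. With the length of 1 principal transcript per gene, which is 4491 in place of 6433 bases for HPS5 and 2649 bases for HPS6 with either choice, the ratio was 0.951 to 1.00 in PAL and 0.455 to 0.495 in control. The shift between groups was present with either length, whereas the level of HPS6 above HPS5 in all 3 PAL libraries was seen with the first.

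BLOC-3 differed little. HPS1 (chromosome 10, 98416198 to 98446947, minus strand) and HPS4 (chromosome 22, 26443423 to 26483837, minus strand) form the pair that activates RAB32 and RAB38. HPS1 had 7.54, 7.50 and 6.33 FPKM in PAL replicates 1, 2 and 3, against 6.996, 6.70 and 6.35 FPKM in control replicates 1, 2 and 3, with PAL replicate 3 just below the lowest control and the others above the highest. HPS4 had 2.84, 2.73 and 2.49 FPKM in PAL replicates 1, 2 and 3, against 2.34, 2.58 and 2.22 FPKM in control replicates 1, 2 and 3. Here PAL replicate 3 lay within the control range, and the groups overlapped for both genes. Log2 fold changes were 0.08 ± 0.07 for HPS1 and 0.13 ± 0.07 for HPS4 (SE). The ratio of HPS1 to HPS4 was 2.65 ± 0.103 in PAL and 2.81 ± 0.198 in control, a difference within the spread of the control libraries.

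In BLOC-1 the exception was BLOC1S3 (chromosome 19, 45178745 to 45181801), a small subunit whose loss gives the reduced pigmentation mouse. It had 3.49, 3.71 and 3.62 FPKM in PAL replicates 1, 2 and 3, against 2.37, 2.23 and 2.74 FPKM in control replicates 1, 2 and 3. All PAL libraries lay above all control libraries. Its mean was 3.61 ± 0.111 FPKM in PAL and 2.44 ± 0.262 FPKM in control, a ratio of 1.48, and the log2 fold change was 0.42 ± 0.07 (SE), rank 297 of all tested genes. It rested on 165 to 178 reads per PAL library and 88 to 113 reads per control library, the fewest of any member in control. BLOC1S3 lies wholly within the annotated span of MARK4 on the same strand, so reads shared with MARK4 are uncertain. MARK4, a kinase of microtubule-associated proteins, averaged 2.75 FPKM in PAL and 2.99 FPKM in control (limma adjusted p = 0.279).

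The other BLOC-1 members did not pass. BLOC1S2 (chromosome 10, 100273280 to 100286712, minus strand), which is also a subunit of the lysosome-positioning complex BORC, had the highest level of the 10. It had 13.8, 14.7 and 13.9 FPKM in PAL replicates 1, 2 and 3, against 14.5, 15.96 and 14.1 FPKM in control replicates 1, 2 and 3, with overlap. BLOC1S6 (chromosome 15, 45587123 to 45615999), or pallidin, which binds the endosomal SNARE STX12, had 9.35, 8.38 and 9.87 FPKM in PAL replicates 1, 2 and 3, against 10.2, 9.90 and 9.88 FPKM in control replicates 1, 2 and 3. Its groups were separated by less than the spread within PAL, and the log2 fold change was -0.11 ± 0.06 (SE). The ratios of PAL to control means were 0.953 for BLOC1S2 and 0.922 for BLOC1S6. AC090527.2, annotated on the same strand, overlaps BLOC1S6 by 28649 bases and averaged 0 FPKM in PAL and in control. A split of reads between these genes is therefore uncertain.

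A pair of BLOC-1 members varied more between replicates than between groups. BLOC1S1 (chromosome 12, 55716037 to 55720087), shared with BORC, had 5.48, 7.60 and 4.82 FPKM in PAL replicates 1, 2 and 3, against 5.72, 6.24 and 5.81 FPKM in control replicates 1, 2 and 3. The PAL range enclosed that of the controls, with a coefficient of variation of 24.3% in PAL and 4.65% in control and a log2 fold change of -0.01 ± 0.13 (SE). DTNBP1 (chromosome 6, 15522801 to 15663058, minus strand), which encodes dysbindin, had 4.06, 4.004 and 3.08 FPKM in PAL replicates 1, 2 and 3, against 3.81, 4.003 and 2.47 FPKM in control replicates 1, 2 and 3. Here replicate 3 was the lowest in each group, and the variation was 14.9% in PAL and 24.3% in control, 2.11 and 3.07 times that of counting. BLOC1S1 shares its whole span with the read-through gene BLOC1S1-RDH5, which averaged 0.117 FPKM in PAL and 0.112 FPKM in control, so a split of reads between them is uncertain. The summed level of the 5 BLOC-1 members was 36.6 ± 1.59 FPKM in PAL and 36.6 ± 1.67 FPKM in control.

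By mean FPKM the order in PAL was BLOC1S2, HPS6, BLOC1S6, HPS5, HPS1, BLOC1S1, DTNBP1, BLOC1S3, HPS4 and HPS3. In control it was BLOC1S2, BLOC1S6, HPS5, HPS1, HPS6, BLOC1S1, DTNBP1, HPS3, BLOC1S3 and HPS4. Neighbours whose ranges overlapped in PAL were HPS5 with HPS1, HPS1 with BLOC1S1, DTNBP1 with BLOC1S3, and HPS4 with HPS3. In control they were HPS1 with HPS6, HPS6 with BLOC1S1, and DTNBP1, HPS3, BLOC1S3 and HPS4 each with the next. With the exon length of the table, HPS6 therefore stood apart from its neighbours in PAL and among them in control. This order depends on that length. With principal transcript lengths the ratio of HPS6 to HPS5 was 0.951 to 1.00 in PAL libraries. Among all tested genes, the members lay between the 26.9 and 73.3 percentile of mean FPKM in PAL and between the 23.7 and 73.9 percentile in control.

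The number of exons is a feature that the choice of genes did not use. HPS6 is a gene of 1 exon, and the coding sequence of BLOC1S3 lies within 1 of its 2 exons, so the members that were higher in PAL are the 2 whose coding sequence is not divided. HPS5 has 22 coding exons, the most of the 10. The remaining members run from 4 coding exons in BLOC1S1 to 18 in HPS1, and HPS1 and HPS3, with 17, did not differ beyond their spread. This feature was noticed after the values were seen, so it is described across all genes without a test.

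Among 10335 tested protein-coding genes with a coding transcript, 11.6% passed as higher and 16.1% as lower in PAL, with a median log2 fold change of -0.002. Of the 555 with an undivided coding sequence, 26.3% passed as higher and 19.3% as lower, with a median of 0.08. For 2 to 5 coding exons the shares were 15.9% higher and 15.9% lower, with a median of 0.04. For 6 to 15 coding exons they were 10.5% higher and 13.2% lower, with a median of 0.003. For 16 or more they were 5.49% higher and 21.9% lower, with a median of -0.07. Medians fell in this order in 18 of 18 alternatives, and the share of rises did so in 18 of 18. The share of falls kept no such order, at 15.9% to 22.7% of undivided genes and 10.6% to 31.7% of genes with 16 or more coding exons over the alternatives. Of the undivided genes, 10 were among the 15 protein-coding genes at or above the fold change of HPS6. Without histone genes the class had 525 members, of which 26.1% passed as higher and 19.05% as lower. Of these 525, 5 lay at or above the fold change of HPS6, HPS6 included. Gene span moves with exon number, with a median of 4992 bases for undivided coding sequences and 80470 bases for 16 or more coding exons, and its part was not tested.

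**Figure D3:**
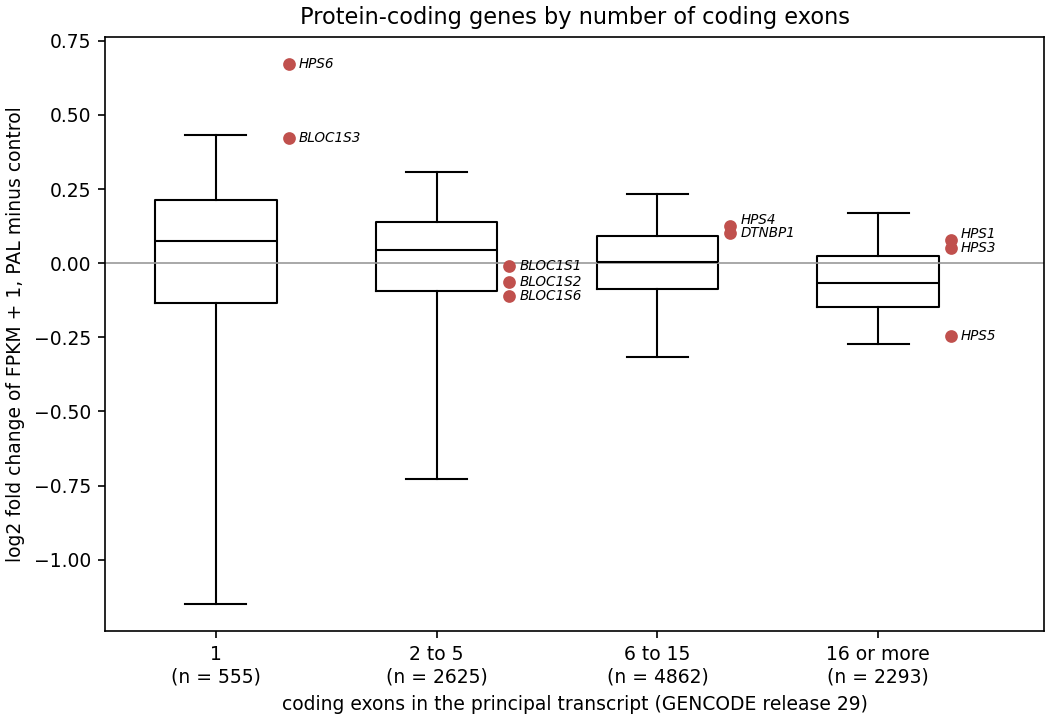
Log2 fold change of FPKM + 1, PAL minus control, of protein-coding genes by number of coding exons, as boxes (quartiles and median) with whiskers to the 5th and 95th percentile, and the 10 BLOC genes as points beside their class. The median is 0.08 for 1 coding exon and -0.07 for 16 or more, HPS6 and BLOC1S3 lie in the upper part of the first class and HPS5 in the lower part of the last.

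The 3 BLOC-1 subunits outside the 10 members had 0 calls in limma, 1 having an unadjusted p under 0.05, and voom on recovered reads also called 0. BLOC1S4, also a gene of 1 exon, had 14.4, 11.4 and 10.6 FPKM in PAL replicates 1, 2 and 3, against 10.5, 9.14 and 10.1 FPKM in control replicates 1, 2 and 3. Its groups were apart by a narrow margin, PAL replicate 1 stood above the others, and the log2 fold change of 0.26 ± 0.11 (SE) did not pass (limma adjusted p = 0.113). Without PAL replicate 1 the log2 fold change was 0.14. It passed with plain read totals (adjusted p = 0.0476), within a range of 0.0476 to 0.268 over the alternatives. SNAPIN, which BLOC-1 shares with BORC, averaged 24.5 ± 1.59 FPKM in PAL and 22.8 ± 0.357 FPKM in control (limma adjusted p = 0.161), and BLOC1S5 2.66 ± 0.183 FPKM in PAL and 2.44 ± 0.215 FPKM in control (limma adjusted p = 0.375). SNAPIN passed as higher after scaling to equal sums (adjusted p = 0.0378), quantile normalization (adjusted p = 0.0375) and scaling to plain read totals (adjusted p = 0.0216), with up to 0.355 under the other alternatives.

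Beyond the members, 87 genes of the melanosome and lysosome route were listed by their known roles, of which 71 passed the filter. In limma 3 of the 71 were higher and 8 lower in PAL, 15.5% in all against 25.9% of all tested genes, with a median log2 fold change of -0.008. The balance moved with the scaling, to 12 higher and 5 lower after scaling to equal sums, 8 and 6 after quantile normalization and 18 and 5 with plain read totals. Without both libraries numbered 3, 0 were higher and 5 lower.

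**Figure D4:**
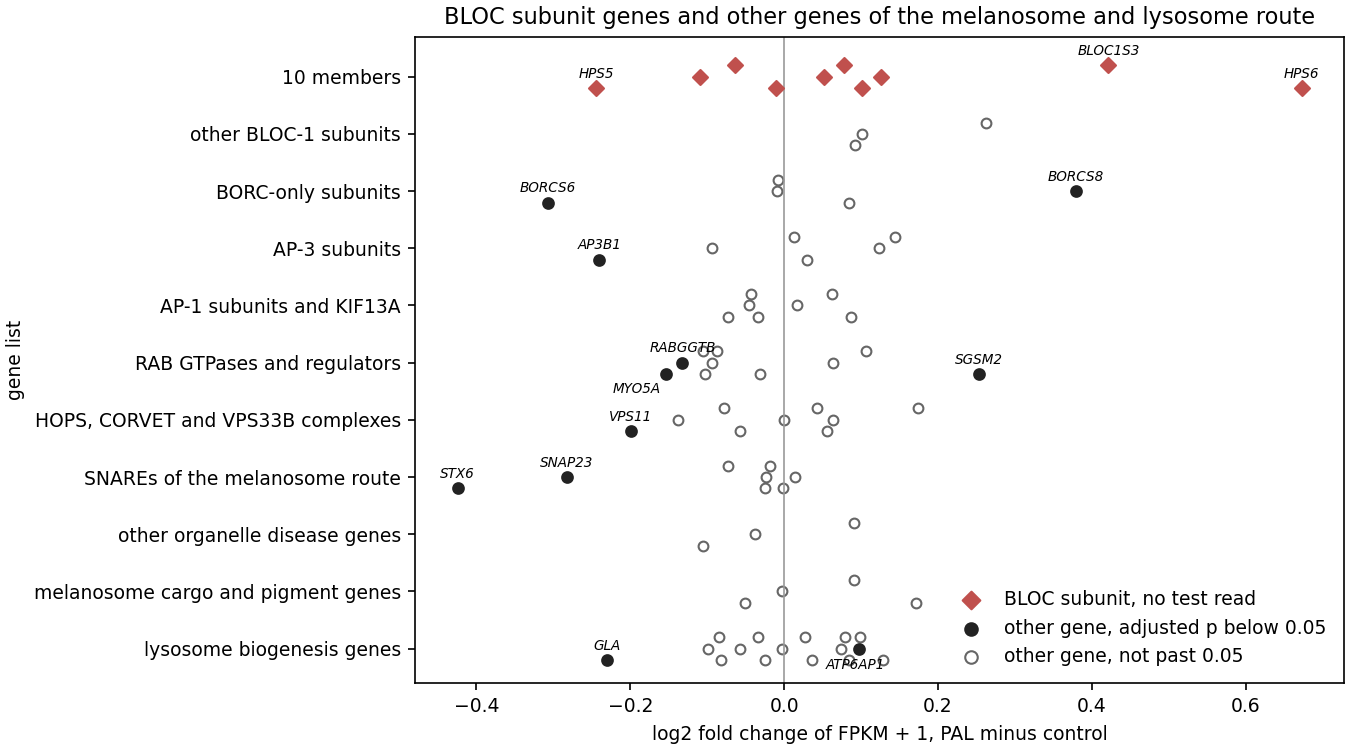
Log2 fold change of FPKM + 1, PAL minus control, of the 10 BLOC subunit genes (diamonds) and of tested genes of the same trafficking route by list (circles, filled where the limma adjusted p was below 0.05). HPS6 lies farthest to the right at 0.67 and STX6 farthest to the left at -0.42, and most genes of each list lie near 0.

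SNAREs fuse carriers with their target membrane. STX6, a SNARE of the trans-Golgi network and endosomes, had 5.14, 5.58 and 5.15 FPKM in PAL replicates 1, 2 and 3, against 7.32, 7.05 and 7.97 FPKM in control replicates 1, 2 and 3. Its log2 value fell by 0.42 ± 0.06 (SE; limma adjusted p = 0.00274). SNAP23 fell to 9.25 ± 0.276 FPKM in PAL, against 11.5 ± 0.427 FPKM in control (limma adjusted p = 0.00409). In all, 2 of 8 SNAREs fell and 0 rose, where 14.5% of all tested genes were called lower and 11.4% higher. The same shares apply to the counts of each list below, and lists this small are given as counts only. STX6, SNAP23 and, in the lists below, AP3B1 and GLA passed in 18 of 18 alternatives. VAMP7 and STX12, which act with BLOC-1 or BLOC-3 carriers, had log2 fold changes of -0.02 and -0.07 and did not pass.

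For the adaptor AP-3, which sorts cargo to melanosomes beside BLOC-1, 1 of 6 subunits fell and 0 rose. AP3B1, whose loss also causes Hermansky-Pudlak syndrome, had 9.03, 8.63 and 9.36 FPKM in PAL replicates 1, 2 and 3, against 10.9, 10.8 and 10.7 FPKM in control replicates 1, 2 and 3. Its log2 value fell by 0.24 ± 0.04 (SE; limma adjusted p = 0.00610), and the groups did not overlap. AP3D1, the large subunit that pairs with it, averaged 21.5 ± 0.256 FPKM in PAL and 21.3 ± 0.308 FPKM in control. AP-1 and the motor KIF13A, which position endosomal tubules near melanosomes, gave 0 calls among 7 genes in limma, 1 having an unadjusted p under 0.05, and voom on recovered reads also called 0. AP1S1 was at 91.0 ± 1.67 FPKM in PAL and 93.9 ± 3.00 FPKM in control, and AP1B1 at 18.7 ± 0.465 FPKM in PAL and 18.5 ± 0.179 FPKM in control.

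BORC, which shares BLOC1S1, BLOC1S2 and SNAPIN with BLOC-1 and moves lysosomes towards the cell edge, had 1 of 5 subunits of its own higher and 1 lower. BORCS8 rose to 2.48 ± 0.149 FPKM in PAL, against 1.68 ± 0.250 FPKM in control (limma adjusted p = 0.0179). BORCS6, a gene of 1 exon, fell to 2.51 ± 0.0379 FPKM in PAL, against 3.35 ± 0.308 FPKM in control (limma adjusted p = 0.0159). BORCS8 did not pass without PAL replicate 2, PAL replicate 3 or control replicate 2 (adjusted p from 0.0542 to 0.0561), and BORCS6 without PAL replicate 2 or control replicate 2 (0.0557 to 0.0564). Over all alternatives BORCS8 passed in 11 of 17 and BORCS6 in 15 of 17.

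RAB32 and RAB38, the targets of BLOC-3, averaged 15.6 ± 1.00 FPKM and 14.1 ± 0.472 FPKM in PAL, against 16.7 ± 1.45 FPKM and 15.3 ± 0.603 FPKM in control. Neither passed (limma adjusted p = 0.355 and 0.111). Among 10 tested genes of this RAB group, SGSM2, which switches RAB32 and RAB38 off, rose by 0.25 in log2 units (limma adjusted p = 0.0419). MYO5A, the motor that carries melanosomes along actin, fell by 0.15 (adjusted p = 0.0496), and RABGGTB, a subunit of the enzyme that attaches lipids to RAB proteins, fell by 0.13 (adjusted p = 0.0371). These 3 calls were narrow. SGSM2 did not pass without PAL replicate 1 or 2 or without control replicate 1, 2 or 3 (adjusted p from 0.0545 to 0.120), MYO5A without any 1 of the 6 libraries (0.0503 to 0.144), and RABGGTB without any 1 library other than control replicate 3 (0.0505 to 0.113). Over all alternatives SGSM2 passed in 10 of 17, MYO5A in 5 of 18 and RABGGTB in 6 of 18.

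Of 9 tested subunits of the HOPS, CORVET and VPS33B tethering complexes, 1 fell and 0 rose. VPS11, a core subunit, fell by 0.20 in log2 units (limma adjusted p = 0.0246), a call lost without PAL replicate 1, PAL replicate 2 or control replicate 3 (adjusted p from 0.0518 to 0.0790) and held in 11 of 18 alternatives. In the lysosome list, 1 of 16 rose and 1 fell. GLA, a lysosomal galactosidase, fell to 19.03 ± 0.594 FPKM in PAL, against 22.5 ± 0.934 FPKM in control (limma adjusted p = 0.00817). ATP6AP1, an accessory subunit of the proton pump, rose by 0.10 on the log2 scale (adjusted p = 0.0380), a call lost without any 1 of the 6 libraries (0.0711 to 0.117) and held in 9 of 18 alternatives.

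In the list of melanosome cargo and pigment genes, 4 of 14 passed the filter and 0 were called in limma, with 1 at an unadjusted p below 0.05. CD63, a tetraspanin of melanosomes and lysosomes, averaged 156 ± 2.02 FPKM in PAL and 156 ± 5.94 FPKM in control. BACE2, a protease that processes PMEL, averaged 13.2 ± 0.187 FPKM in PAL and 12.4 ± 0.409 FPKM in control (limma adjusted p = 0.108). It passed as higher after scaling to equal sums (adjusted p = 0.0158), quantile normalization (adjusted p = 0.0390) and plain read totals (adjusted p = 0.0118), with up to 0.260 under the other alternatives. With voom on recovered reads 1 gene of the list was called, TPCN2, a channel of melanosomes named here after its values were seen, at 1.34 ± 0.0779 FPKM in PAL and 1.08 ± 0.116 FPKM in control. Other organelle disease genes gave 0 calls among 3 tested, of which 0 had an unadjusted p under 0.05, and voom called 0. Of these, PI4K2A, a lipid kinase of endosomes, averaged 12.1 ± 0.253 FPKM in PAL and 11.3 ± 0.483 FPKM in control, and WDR11 4.18 ± 0.381 FPKM in PAL and 4.57 ± 0.227 FPKM in control. PI4K2A passed as higher after scaling to equal sums (adjusted p = 0.0297) and with plain read totals (adjusted p = 0.0198), with up to 0.344 under the other alternatives.

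The genes with the profile most like that of HPS6 were sought among 6617 tested protein-coding genes whose higher group averaged 5 FPKM or more. Likeness was the mean absolute difference over the 6 libraries of log2(FPKM + 1), each gene set to 0 at its control mean. ZC3H4, a zinc finger protein that restrains noncoding transcription, was closest at 0.018. It had 9.88, 10.7 and 10.7 FPKM in PAL replicates 1, 2 and 3, against 6.63, 6.03 and 5.83 FPKM in control replicates 1, 2 and 3, near the values of HPS6 itself in all 6 libraries. CCDC9B at 0.066, FLRT3 at 0.067, CCDC71 at 0.073 and CBX6, a chromobox protein of Polycomb complexes, at 0.076 came next. Their PAL means ran from 11.3 to 17.1 FPKM and their control means from 7.08 to 10.9 FPKM. The measure ranks on the difference between groups that chose HPS6, so it is a description.

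**Figure D5:**
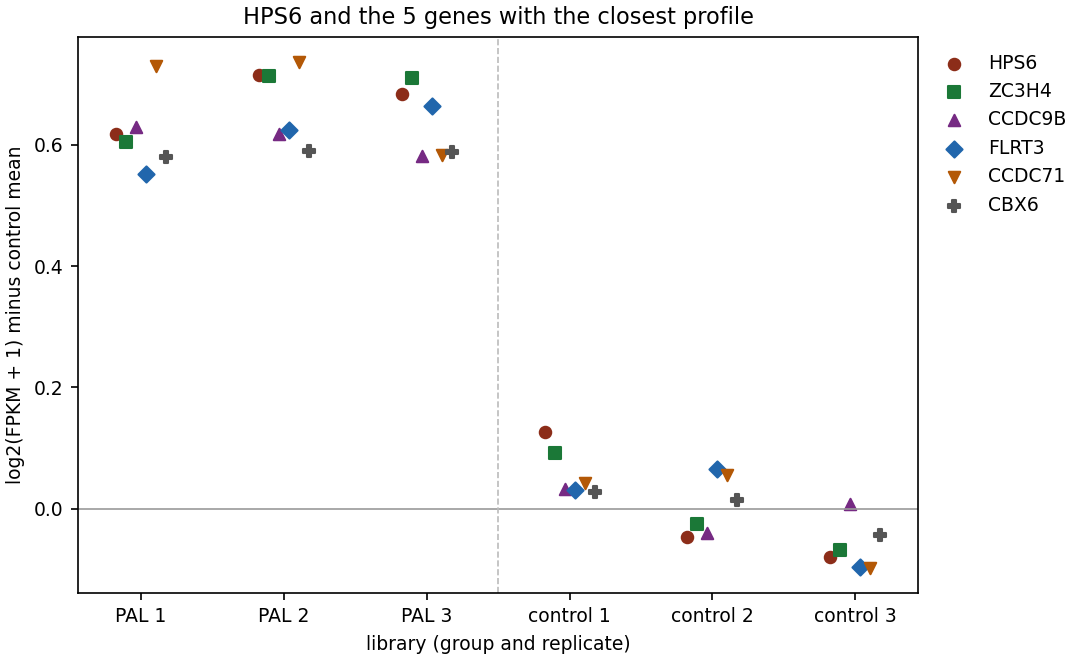
Log2(FPKM + 1) minus the control mean of HPS6 and of the 5 genes with the closest profile, by library, with PAL libraries on the left and control libraries on the right. ZC3H4 lies close to HPS6 in all 6 libraries, and all 6 genes lie higher in each PAL library than in any control library.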

How the data were processed

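Poly-A enriched RNA of 6 A375 libraries was analysed, 3 PAL and 3 control. The authors deposited 1 table of FPKM values per gene, aligned to build hg38 per the submitters' processing notes; no aligner, counter, strand setting or filter is named by the sources used here. FPKM times gene length gave whole multiples of 1 step per library for 100% of values, within 0.01 of a whole number, so reads could be recovered (15064971 to 17711389 per library). The library size behind FPKM was 1.04 to 1.05 times the plain total in PAL and 0.980 to 0.984 times it in control, which lowers PAL values against plain totals. Gene length equalled the union of exons of GENCODE release 29 for 58724 of 58735 genes, and exon numbers came from that release's principal transcripts.

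Tests used limma 3.58.1 in R 4.3.3 on log2(FPKM + 1) with a variance trend and Benjamini-Hochberg adjustment over 12258 genes that reached 1 FPKM in 3 or more libraries, two-sided, threshold 0.05, with 4 residual degrees of freedom. A fold change on this scale understates that of low genes. An exact permutation test of 3 against 3 could not go below 0.1 and was not used. The members and gene lists were chosen with earlier results of these data known. Besides the members, the text names in each list the 2 widest rises and the 2 widest falls that passed, or where none did the 2 genes of highest level, the neighbours of HPS6 and the 5 genes closest to it in profile; BLOC1S5, AP3D1, STX12, VAMP7, RAB32, RAB38, HSPA6, MARK4 and the genes under other observations fall outside this rule and were added after their values were seen. Replicates of a group differed by more than counting error, with chi-square per degree of freedom from 2.02 to 4.48, and between groups it was 41.2 to 50.5. Alternatives changed the pseudocount, filter, scaling, variance model, pairing, test and libraries. The script was tested on simulated data. 1 start region is not reported here.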

Additional observations from a re-analysis of the deposited data

How the results depend on the processing

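HPS6 kept its direction and its place past the threshold in 18 of 18 alternatives, with log2 fold changes from 0.63 to 0.76. BLOC1S3 did so in 17 of 17 and HPS5 in 15 of 18. The members were chosen with these values known, so these counts are a description and lend no support. The members past the threshold numbered 2 or 3 throughout. BLOC1S1, BLOC1S2 and DTNBP1 changed sign between alternatives and passed in 0. Over all tested genes 3179 were called, against 2103 with no filter and 1855 to 2789 when 1 library was left out, fewest without PAL replicate 2, with 1972 without PAL replicate 1 and 2051 without control replicate 2. Of the pathway genes 11 were called, against 6 with no filter, 17 with equal sums, 23 with plain read totals, 4 to 8 when 1 library was left out and 5 without both libraries numbered 3. The HPS6 share of BLOC-2 differed by 15.9 percentage points, by 11.8 with reads in place of FPKM, by 14.8 with principal transcript lengths and by 15.3 to 16.5 when 1 library was left out. The last 2 kinds of change, both libraries numbered 3 and transcript length, were chosen after seeing the data. The cause of these shifts was not tested.

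With the replicate number as a block, 2131 genes, 3 members and 7 pathway genes were called. Libraries with the same number did not deviate together (r = -0.024, 0.027 and -0.045 over genes for numbers 1, 2 and 3), so the numbers are not read as a pairing, and not every library correlated best with its own number. Of 464 values of 26 named genes outside the members, 398 kept their side of the threshold, 56 lost a call and 10 gained one. A change of direction was counted as a reversal only where the gene was called under either setting, and 0 were found. The 398 include sign changes of genes not called, such as AP1S1, with log2 fold changes of -0.05 in the main fit and 0.04 with plain read totals. With 3 libraries a group and 88 to 1238 reads per member and library, small differences of low members were not detectable.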

Other observations

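The other genes at or above the fold change of HPS6 were read through after their values were seen, and are given as values. Among 15 protein-coding genes there, 10 had a coding sequence in 1 exon, HPS6 included. C1orf74 had 2.29 ± 0.258 FPKM in PAL and 0.966 ± 0.128 FPKM in control (SD, n = 3 each). PARS2, the mitochondrial prolyl-tRNA synthetase, had 3.37 ± 0.557 FPKM in PAL and 1.62 ± 0.174 FPKM in control, and ZNF526 3.85 ± 0.353 FPKM in PAL and 2.01 ± 0.136 FPKM in control. CCDC71 stood at 15.7 ± 0.988 FPKM in PAL and 9.42 ± 0.598 FPKM in control. The other 5 were histone genes of low level in these poly-A libraries, of which HIST1H1E had 2.92 ± 0.511 FPKM in PAL and 1.17 ± 0.311 FPKM in control. CLK2, a kinase of splicing factors with 12 coding exons, was also above HPS6, at 13.7 ± 0.613 FPKM in PAL and 7.43 ± 0.635 FPKM in control.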
